A study of Mus musculus with 6 samples.

Results

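The aldo-keto reductases described here are 10 genes of the 24422 in the count tables, taken by symbol: 3 of the AKR1B group (Akr1b3, Akr1b7 and Akr1b8) and 7 of the AKR1C group (Akr1c12, Akr1c13, Akr1c14, Akr1c18, Akr1c19, Akr1c20 and Akr1c21). The family was chosen by the measured fall of 1 member, Akr1c18, in the knockout kidneys compared with controls, so the values of Akr1c18 in that contrast are given as a description with no test, and counts over the family support nothing about it. RNA was sequenced from 6 whole C57BL/6 mouse kidneys at postnatal day 60, with 3 libraries labelled control (genotype wild type) and 3 labelled TfR1KO;KspCre (genotype Tfr1f/f;KspCre, here called knockouts), all from mice on a diet with 220 ppm iron. In the knockouts both copies of the transferrin receptor gene (TfR1, symbol Tfrc) carry floxed exons, and KspCre is a Cre recombinase under the Ksp-cadherin promoter, which acts in distal nephron and collecting duct epithelium and not in every kidney cell. The comparison asks which transcripts differ in the kidney when iron uptake through this receptor is removed from those segments.

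Aldo-keto reductases are soluble enzymes that use NADPH to reduce aldehydes and ketones. The AKR1B group includes aldose reductase, which makes sorbitol from glucose and so supplies an osmolyte to cells of the renal medulla, and the AKR1C group holds hydroxysteroid dehydrogenases that activate or inactivate progestins, androgens and other steroids. In mice several AKR1C enzymes are abundant in the proximal tubule or differ between the sexes. Because whole kidneys were sequenced, fewer cells of a type and less RNA per cell cannot be told apart.

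The sequences bear on how the members can be counted, since the study kept uniquely mapped reads of at most 100 bases. Of the 100-base words of the longest coding transcript of Akr1b3 (GENCODE M1 on NCBIM37, mm9), 72.9% had an exact copy elsewhere in the genome, and 95.9% had one with up to 2 mismatches. Unbroken alignments of most of the Akr1b3 transcript lay on chromosome 1 (55500555 to 55501906, 99.7% identical, the pseudogene Gm6644), chromosome 12 (13461463 to 13462814, 99.5%) and chromosome 11 (40486048 to 40487396, 99.0%). The first 100 coding bases of Akr1b3 occur unbroken at chr1:55501769-55501868, within Gm6644. They are shown beside those of Akr1b7 and Akr1b8, with capitals marking bases that differ from Akr1b3 at the same place.
Akr1b3: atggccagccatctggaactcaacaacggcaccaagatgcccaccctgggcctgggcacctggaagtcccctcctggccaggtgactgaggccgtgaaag
Akr1b7: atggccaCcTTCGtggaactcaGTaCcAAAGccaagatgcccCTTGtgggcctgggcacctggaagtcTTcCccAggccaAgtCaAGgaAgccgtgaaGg
Akr1b8: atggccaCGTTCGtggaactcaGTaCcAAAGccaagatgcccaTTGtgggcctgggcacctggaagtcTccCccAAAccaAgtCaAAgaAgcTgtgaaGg
Akr1b7 differed from Akr1b3 at 26 of these bases and Akr1b8 at 28, and 0% of their words had an exact copy elsewhere.

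The AKR1C genes can mostly be told apart by reads of this length. The first 100 coding bases of Akr1c18 are shown with those of the other members that the results turn on, and capitals mark bases that differ from Akr1c18.
Akr1c18: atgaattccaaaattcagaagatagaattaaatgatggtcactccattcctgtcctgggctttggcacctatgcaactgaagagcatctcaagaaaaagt
Akr1c14: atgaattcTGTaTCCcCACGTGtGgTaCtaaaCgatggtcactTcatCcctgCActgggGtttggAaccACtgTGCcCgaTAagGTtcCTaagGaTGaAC
Akr1c21: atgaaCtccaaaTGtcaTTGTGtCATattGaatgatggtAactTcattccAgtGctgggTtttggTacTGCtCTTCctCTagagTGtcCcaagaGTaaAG
Akr1c12: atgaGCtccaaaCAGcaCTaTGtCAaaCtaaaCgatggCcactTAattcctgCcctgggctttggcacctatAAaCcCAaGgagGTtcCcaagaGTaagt
Akr1c13: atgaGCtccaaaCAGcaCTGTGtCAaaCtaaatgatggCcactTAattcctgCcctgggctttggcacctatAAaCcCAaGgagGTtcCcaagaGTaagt
Akr1c14 differed from Akr1c18 at 39 of these bases, Akr1c21 at 34 and Akr1c12 and Akr1c13 at 28 each. For Akr1c14, Akr1c18, Akr1c19, Akr1c20 and Akr1c21, 0% of the words had a copy elsewhere, also with up to 2 mismatches. The exception was the pair Akr1c12 and Akr1c13, where 6.09% and 6.31% of words were shared exactly.

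Across whole coding sequences Akr1c12 and Akr1c13 were 96.2% identical, and Akr1b7 and Akr1b8 84.9%. Akr1c18 was 76.8% identical to Akr1c14 and 76.7% to Akr1c21. The members lie in 2 clusters (mm9). The 3 AKR1B genes span 119.2 kb of chromosome 6 (34253934 to 34373142), and the 7 AKR1C genes span 537.5 kb of chromosome 13 (4048257 to 4585787), with Akr1c18 at 4131861 to 4149900 on the minus strand between Akr1c14 (4048257 to 4089668, plus) and Akr1c13 (4190430 to 4204842, plus). Akr1b3 overlaps Gm14546, Akr1b7 overlaps Gm13857 and Akr1b8 a miRNA gene, all on the opposite strand. The library kit keeps no strand, so reads from any exon sequence shared with these partners cannot be told apart. The overlaps are of whole gene spans, and how much exon sequence is shared was not measured.

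**Figure D1:**
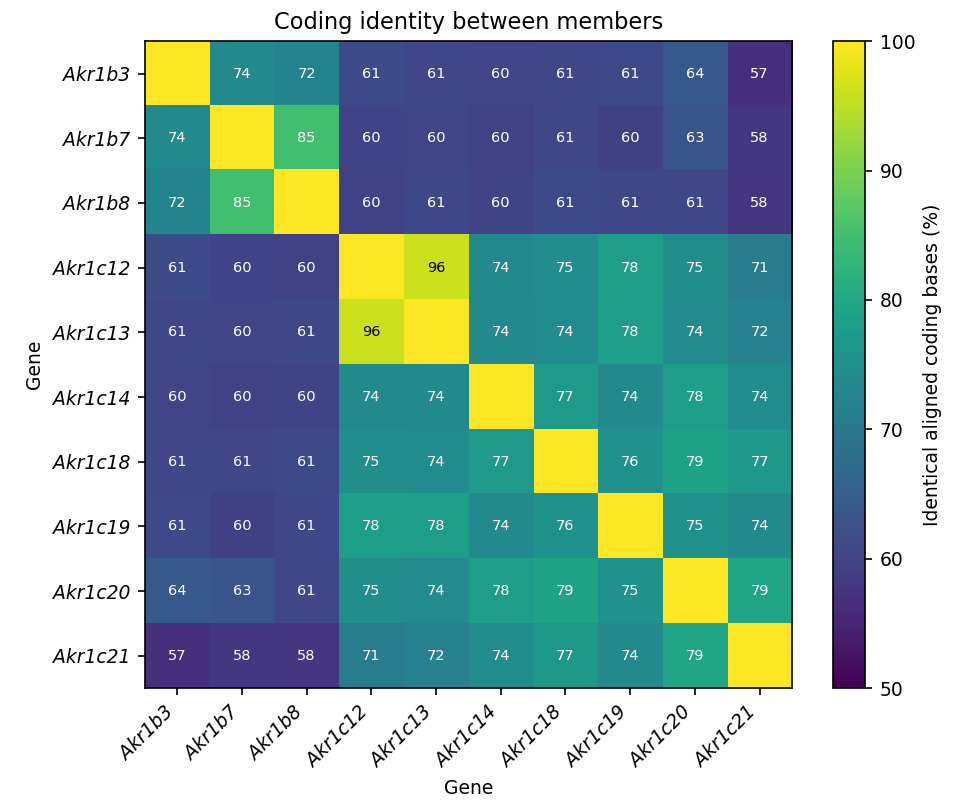
Percent of aligned coding bases that are identical between each pair of members (longest coding transcript of each gene in GENCODE M1), with rows and columns as genes and the colour scale from 50 to 100%. Akr1c12 and Akr1c13 form the closest pair at 96.2%, and members of the AKR1B group match those of the AKR1C group at 57.0 to 63.8%.

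Promoters (250 bases before to 50 after the start, from RefSeq on GRCm38.p6) were had for 8 members. Those of Akr1c12 (chr13:4279350-4279649, minus strand) and Akr1c13 (chr13:4190937-4191236, plus strand) were 95.9% identical over 296 aligned bases, and are shown because the coding sequences of this pair were also the closest in the family. Capitals mark bases that differ or are unaligned.
Akr1c12: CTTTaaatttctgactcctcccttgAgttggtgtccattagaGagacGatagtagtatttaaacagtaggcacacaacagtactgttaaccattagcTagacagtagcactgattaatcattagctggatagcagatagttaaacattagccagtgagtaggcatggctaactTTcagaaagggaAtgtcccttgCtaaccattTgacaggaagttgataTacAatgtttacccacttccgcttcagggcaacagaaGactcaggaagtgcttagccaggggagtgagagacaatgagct
Akr1c13: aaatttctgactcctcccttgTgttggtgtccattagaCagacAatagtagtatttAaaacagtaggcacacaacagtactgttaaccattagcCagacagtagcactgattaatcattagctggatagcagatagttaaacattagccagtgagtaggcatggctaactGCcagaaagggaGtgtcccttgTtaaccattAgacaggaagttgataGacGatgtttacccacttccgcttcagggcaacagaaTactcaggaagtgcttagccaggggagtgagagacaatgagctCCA
Other promoters of the family were 50.5 to 67.1% identical in pairs. The promoter of Akr1c18 (chr13:4150597-4150896, minus strand) was 60.4% identical to that of Akr1c14, and held 0 matches to the 5 motifs searched on both strands. That of Akr1b7 (chr6:34412112-34412411, plus strand) held the androgen or glucocorticoid receptor half-site, in capitals.
Akr1c18: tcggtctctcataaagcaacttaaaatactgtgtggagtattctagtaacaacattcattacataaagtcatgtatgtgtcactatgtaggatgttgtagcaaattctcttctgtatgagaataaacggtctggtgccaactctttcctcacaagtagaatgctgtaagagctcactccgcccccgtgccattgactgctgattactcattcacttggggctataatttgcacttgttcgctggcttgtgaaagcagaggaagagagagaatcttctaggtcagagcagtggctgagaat
Akr1b7: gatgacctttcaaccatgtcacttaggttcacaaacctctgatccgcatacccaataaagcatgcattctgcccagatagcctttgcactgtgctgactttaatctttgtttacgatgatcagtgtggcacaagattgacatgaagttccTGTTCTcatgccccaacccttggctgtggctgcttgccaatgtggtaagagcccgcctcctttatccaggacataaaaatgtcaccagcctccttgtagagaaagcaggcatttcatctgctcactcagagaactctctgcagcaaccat
The motifs were the TATA box (TATAAA, in 13.6% of all promoters), the antioxidant response element core (TGACNNNGC, 12.4%), the androgen or glucocorticoid receptor half-site (AGAACA, 18.9%), the HNF4 core (CAAAGT, 14.4%) and the HNF1 core (0.403%). The TATA box and the HNF4 core, which do not overlap, were found in Akr1b8, and the antioxidant core in Akr1c19. A match is only a string of letters, and the data hold no measure of binding.

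The libraries held 11501053 to 21001341 counts, and the smallest was knockout 3. Values are library-scaled read counts (TMM-normalised CPM), in which 1 count was worth 0.0491 to 0.0766 CPM. The targeted gene gave no check of the labels, as Tfrc held a mean of 122.8 ± 54.7 CPM (SD, n = 3) in controls against 113.6 ± 90.1 CPM (SD, n = 3) in the knockout kidneys. Control 2 stood apart. It held 3.06 CPM of Xist, the transcript that silences an X chromosome in females, against 760.4 to 1431 CPM in the other 5 libraries, and 30.4 to 85.3 CPM of the 4 Y-linked genes, each at most 0.306 CPM elsewhere. The 7 tested genes known to be androgen-dependent or higher in male mouse kidneys were all highest in control 2. The fold change of each tested member is therefore given also without control 2, and so is that of any other named gene where it moved by over 1.5 times. Xist itself had a log2 fold change of 0.20 (SE 1.38), and of -0.40 (SE 0.36) without control 2.

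Of 15171 tested genes, 17.2% passed an adjusted p of 0.05, 6.64% lower and 10.6% higher in knockouts (quasi-likelihood test of edgeR, Benjamini-Hochberg adjusted). Of the 10 members 9 were tested. Beside Akr1c18, which had been chosen for its fall, 1 member was called lower (Akr1c14) and 1 higher (Akr1b8). The groups did not overlap for 4 members (Akr1b8, Akr1c14, Akr1c18 and Akr1c21), where 46% of all tested genes did not overlap (22.2% lower and 23.8% higher). The median log2 fold change of the 9 members was -0.11, and that of all tested genes was 0.0209. With Akr1c18 left out, the median of the other 8 members was -0.00406. Without control 2, 0 genes of 15565 were called by edgeR (0%), whereas 27.4% had an unadjusted p under 0.05. The median of the members, Akr1c18 included, was -0.50 without control 2 and 0.31 without control 3.

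**Figure D2:**
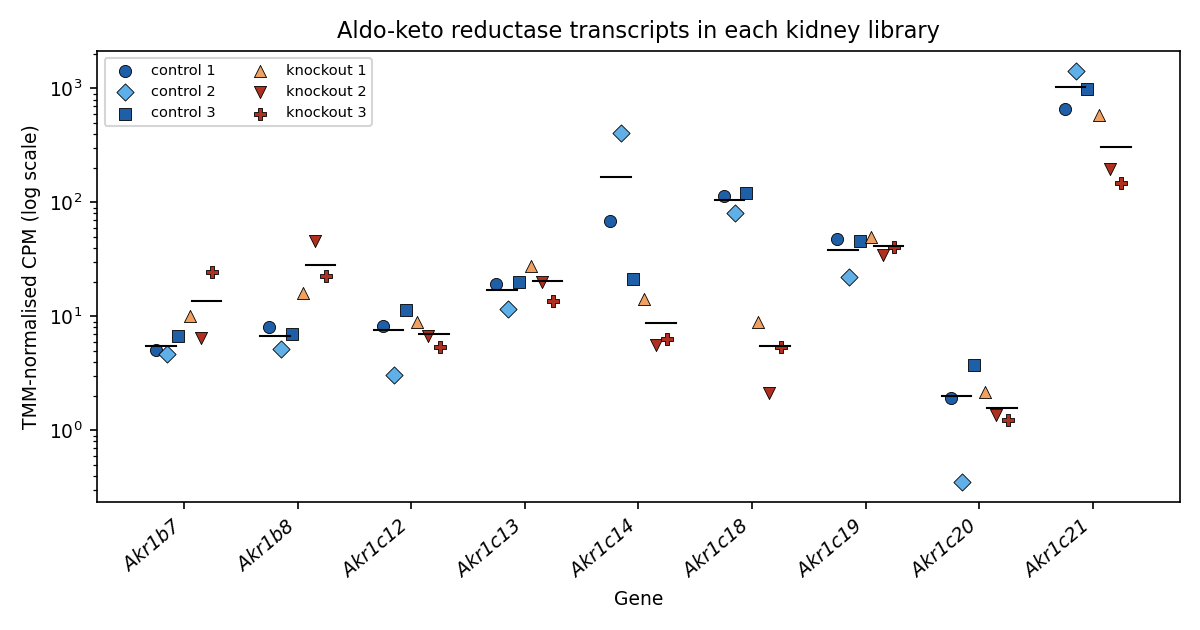
TMM-normalised CPM on a log scale for the 9 tested members, with 1 symbol for each of the 6 libraries and short lines at the group means. Akr1c18 lay between 80.6 and 120.9 CPM in controls and at 8.88 CPM or below in knockouts, and Akr1c14 in control 2 stood above all other libraries.

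Akr1c18 encodes the hydroxysteroid dehydrogenase that inactivates progesterone. It held 113.9, 80.6 and 120.9 CPM in controls 1 to 3, and 8.88, 2.11 and 5.44 CPM in knockouts 1 to 3. Even the highest knockout therefore lay below the lowest control by a wide margin, and control 2 was the lowest of the controls. These levels rested on 2290, 1371 and 2014 reads for the controls and on 181, 42 and 71 reads for the knockouts. The log2 fold change was -4.26 (SE 0.51), which is 19.2-fold lower, and was -4.43 (SE 0.55) without control 2. Across the alternatives in processing it ranged from -4.84 to -3.86.

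Akr1c14 encodes a hydroxysteroid dehydrogenase that reduces dihydrotestosterone. It held 68.5, 410.5 and 21.4 CPM in controls 1 to 3 and 14.3, 5.62 and 6.36 CPM in knockouts 1 to 3. All knockouts lay below all controls, but the controls themselves were widely spread, with control 2 at 9.13 times the mean of the other two. Akr1c14 fell by 4.24 on the log2 scale (SE 1.11; edgeR, adjusted p 0.0451). Without control 2 the log2 fold change was -2.36 (SE 0.60), and the gene was not called (edgeR, adjusted p 0.118). The call was also lost without control 1, control 3, knockout 2 or knockout 3, with log2 fold changes of -4.63, -4.78, -4.00 and -4.06. In those fits only 0, 0, 73 and 2 of all tested genes were called, so the loss was not particular to Akr1c14. With limma-voom on all 6 libraries Akr1c14 was at -3.36 and not called either (adjusted p 0.118).

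Akr1c21 encodes a hydroxysteroid dehydrogenase known for its high level in mouse kidney. It held 659.9, 1415 and 988.5 CPM in controls 1 to 3 and 583.3, 194.9 and 148.2 CPM in knockouts 1 to 3. The groups did not overlap, but knockout 1 lay close below control 1. Its log2 fold change of -1.73 (SE 0.57) did not pass the threshold (edgeR, adjusted p 0.0745). It was -2.58 and called without knockout 1 (edgeR, adjusted p 0.00499), and -1.43 (SE 0.62) without control 2 (edgeR, adjusted p 0.197). On all 6 libraries DESeq2's Wald test, the tool of the study, called it lower at -1.75 (adjusted p 0.00672).

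**Figure D3:**
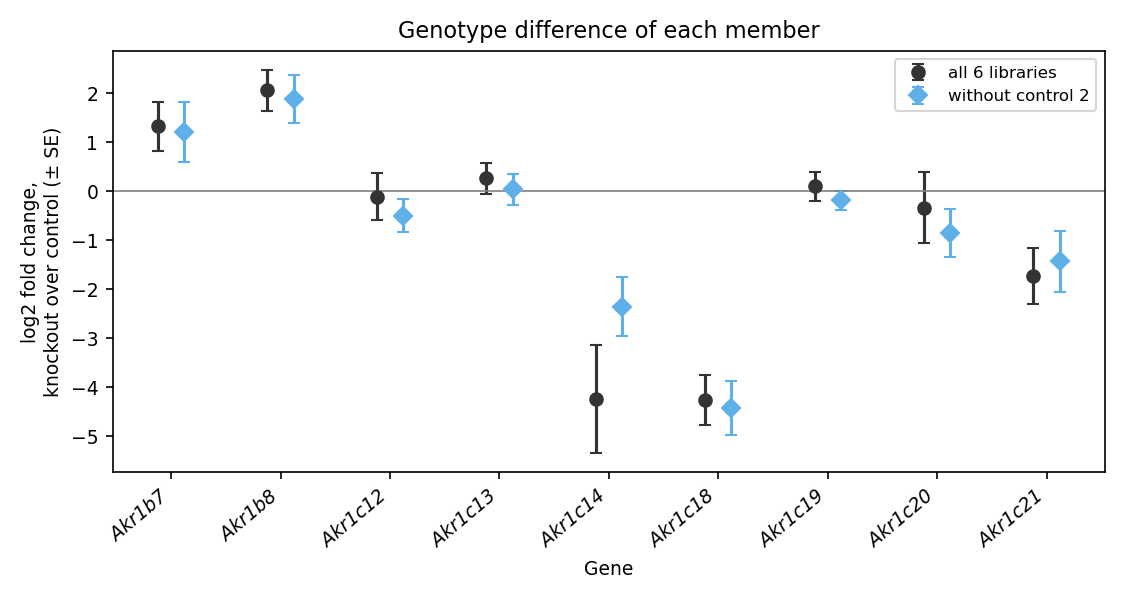
Log2 fold change of knockout over control for the 9 tested members, with bars of 1 SE, from all 6 libraries and without control 2. Akr1c18 stayed near -4 in both, whereas Akr1c14 moved from -4.24 to -2.36, and Akr1c12, Akr1c13, Akr1c19 and Akr1c20 lay within 1 of 0.

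The other AKR1C members showed no called change. Akr1c19 held 47.5, 22.4 and 45.9 CPM in controls and 49.3, 34.4 and 40.4 CPM in knockouts, so that the groups overlapped. Its log2 fold change was 0.10 (SE 0.30; edgeR, adjusted p 0.828) and turned to -0.18 without control 2. Akr1c13 held 19.3, 11.6 and 20.2 CPM in controls and 27.6, 20.1 and 13.6 CPM in knockouts. The log2 fold change was 0.27 (SE 0.32; edgeR, adjusted p 0.567), and 0.0426 without control 2. Akr1c12, its near-copy, held 8.21, 3.06 and 11.5 CPM in controls and 8.93, 6.67 and 5.44 CPM in knockouts. The log2 fold change was -0.11 (SE 0.48; edgeR, adjusted p 0.885), and -0.50 (SE 0.33) without control 2. Akr1c20 was near the lower limit, with 39, 6 and 62 counts in controls and 44, 27 and 16 in knockouts. The log2 fold change was -0.33 (SE 0.73; edgeR, adjusted p 0.764), and -0.84 (SE 0.49) without control 2.

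Control 2 was the lowest of all 6 libraries for each of these 4 genes. It lay at 0.480 times the mean of controls 1 and 3 for Akr1c19, 0.590 times for Akr1c13, 0.311 times for Akr1c12 and 0.125 times for Akr1c20. For Akr1c14 and Akr1c21 it was instead the highest library, at 9.13 and 1.72 times that mean. As 1 library, control 2 gives these differences without a replicate. The log2 CPM of Akr1c12 and Akr1c20 had a Pearson correlation of 0.992 over the 6 libraries, and those of Akr1c12 and Akr1c19 one of 0.902. These points share their libraries and scaling, and control 2 lies at 1 end of all 3 genes.

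Taken as a sum, the 7 AKR1C genes held 919.3, 1943 and 1212 CPM in controls and 694.6, 265.2 and 220.7 CPM in knockouts. Akr1c21 made up 67.2 to 84.0% of this sum in every library, and its share overlapped between the groups. The share of Akr1c18 was 12.4, 4.15 and 9.98% in controls and 1.28, 0.795 and 2.46% in knockouts. Akr1c12, Akr1c13 and Akr1c19 together made up 8.16, 1.91 and 6.39% in controls and 12.4, 23.1 and 26.9% in knockouts. These are shares of a sum that includes Akr1c18, chosen for its fall, and that was lower in every knockout than in any control. The CPM of each of these 3 genes overlapped between the groups, with log2 fold changes of -0.11 (Akr1c12), 0.27 (Akr1c13) and 0.10 (Akr1c19). Their larger share in knockouts is therefore not read as a rise of these genes.

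**Figure D4:**
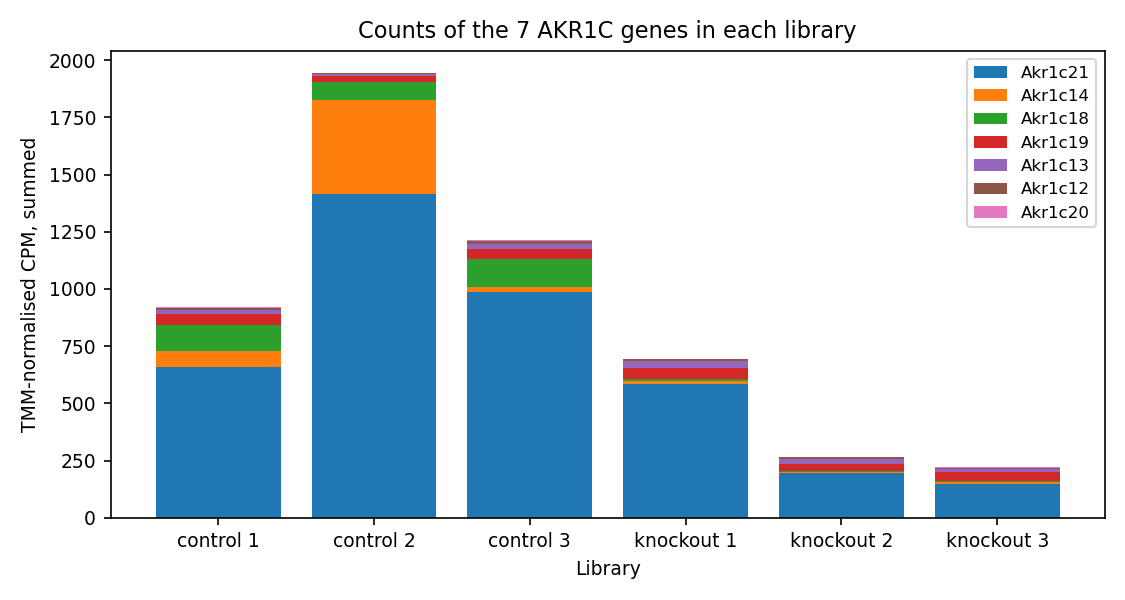
Summed TMM-normalised CPM of the 7 AKR1C genes in each of the 6 libraries, with each colour 1 gene and the bars starting at 0. Akr1c21 (blue) fills 67.2 to 84.0% of each bar, and the band of Akr1c18 (green) is 2.46% or less of the sum in knockouts.

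Of the AKR1B members that were tested, Akr1b8 was called higher and Akr1b7 was not called. Akr1b8, a growth factor-inducible reductase, held 8.11, 5.17 and 6.96 CPM in controls and 16.0, 46.0 and 22.6 CPM in knockouts, and all knockouts lay above all controls. It rose 4.17-fold, or 2.06 on the log2 scale (SE 0.42; edgeR, adjusted p 0.0316). Without control 2 the log2 fold change was 1.89 (SE 0.49) and not called (edgeR, adjusted p 0.119). The call was also lost without control 1, control 3, knockout 2 or knockout 3, with log2 fold changes of 2.20, 2.08, 1.51 and 2.20. In those fits only 0, 0, 73 and 2 of all tested genes were called, so the loss was not particular to Akr1b8.

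Akr1b7, known from the vas deferens and the adrenal cortex, held 5.03, 4.64 and 6.66 CPM in controls and 10.1, 6.47 and 24.5 CPM in knockouts. Knockout 2 fell within the control range. The log2 fold change of 1.32 (SE 0.50) did not pass the threshold (edgeR, adjusted p 0.0995), and was 0.60 without knockout 3 and 1.21 without control 2. Of 12 adrenal markers 1 was tested, Star, and their summed level was 7.64 to 9.73 CPM in controls and 8.39 to 15.1 CPM in knockouts. Most of that sum was Star itself, at 7.17 to 8.77 CPM in controls and 7.17 to 13.2 CPM in knockouts. Cyp11b2, which makes aldosterone, was listed at 0 in all libraries, and Cyp11b1, which makes corticosterone, at 1 count in knockout 2 and at 0 elsewhere. Cyp11a1, which starts steroid synthesis, had 2, 1 and 3 counts in controls and 4, 8 and 5 in knockouts. The part of adrenal tissue in the level of Akr1b7 was not tested.

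Akr1b3, the gene of aldose reductase itself, was listed at 0 counts in 5 libraries and at 1 in knockout 1. Of its words 72.9% had an exact copy elsewhere, and the counting kept unique reads only. Akr1b3 also overlaps Gm14546, and the annotation behind the counts is not given in the sources used here. The part of the copies and of this overlap in the zeros was not tested, and the zeros are not read as absence of expression. The pseudogene Gm6644 was also at 0 in all libraries.

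Levels were compared between members per kilobase of the longest transcript (CPM per kb). In controls the order was Akr1c21 at 846 ± 314, Akr1c18 at 87.1 ± 17.8, Akr1c14 at 57.2 ± 72.8, Akr1c19 at 28.6 ± 10.4, Akr1c13 at 13.9 ± 3.82, Akr1c12 at 5.99 ± 3.35, Akr1b8 at 4.97 ± 1.09, Akr1b7 at 4.25 ± 0.838 and Akr1c20 at 1.52 ± 1.28 CPM per kb (SD, n = 3 each). The place of Akr1c14 rested on control 2, since its controls were at 23.5, 141 and 7.35 CPM per kb. Without control 2 its mean was 15.4 CPM per kb, below Akr1c19 at 34.6 and Akr1c13 at 16.1, and Akr1c18 stayed in second place at 97.3. Neighbours whose controls overlapped were Akr1c18 and Akr1c14, Akr1c14 and Akr1c19, Akr1c12 and Akr1b8, and Akr1b8 and Akr1b7. In knockouts Akr1c21 was still first at 256 ± 198, followed by Akr1c19 at 30.7 ± 5.56, Akr1b8 at 20.8 ± 11.6, Akr1c13 at 16.7 ± 5.72, Akr1b7 at 10.7 ± 7.46, Akr1c12 at 5.55 ± 1.40, Akr1c18 at 4.54 ± 2.81, Akr1c14 at 3.01 ± 1.66 and Akr1c20 at 1.20 ± 0.384 CPM per kb (SD, n = 3 each). There every pair of neighbours from Akr1c19 down to Akr1c14 overlapped. Akr1c18 thus stood in second place in controls and in seventh place in knockouts.

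Of 8 tested genes from the rest of the superfamily 1 was called lower and 0 higher, with a median log2 fold change of -0.56. The called gene was Akr1e1, at -0.77 (SE 0.18; edgeR, adjusted p 0.0378). Akr1a1, the general aldehyde reductase, held 1447, 2065 and 2022 CPM in controls and 1311, 853.1 and 737.3 CPM in knockouts, and its log2 fold change was -0.93 (SE 0.32; edgeR, adjusted p 0.0796). Akr1d1, the steroid reductase of bile acid synthesis, held 22.1, 60.5 and 28.6 CPM in controls and 11.5, 2.61 and 1.15 CPM in knockouts. The log2 fold change was -2.84 (SE 0.83; edgeR, adjusted p 0.0561). Akr7a5 was at -1.30 (edgeR, adjusted p 0.0564), and Kcnab1, a potassium channel subunit of the same fold, at 2.90 (edgeR, adjusted p 0.0789). Akr1b10, a further AKR1B gene that was not called, held 31.6, 32.6 and 35.8 CPM in controls and 29.6, 26.2 and 22.0 CPM in knockouts.

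Of 4 tested genes of the polyol pathway and fructose metabolism 3 were called lower and 0 higher, with a median log2 fold change of -1.74. Sord, which makes fructose from sorbitol, fell by 1.84 on the log2 scale (SE 0.49; edgeR, adjusted p 0.0472). Glyctk, at -2.12, and Tkfc, at -1.65, were called as well, and Khk, the fructose kinase, was at -1.61 (edgeR, adjusted p 0.0604). Of 8 osmolyte genes 1 was called lower (Hspa4l) and 1 higher (Gdpd5, 1.14). The osmolyte transporters Slc6a12 and Slc5a3 had log2 fold changes of -2.31 (SE 1.05) and -1.67 (SE 0.61), and Nfat5, the regulator of this response, one of 0.24 (SE 0.17), and all 3 were not called.

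Among 17 tested steroid dehydrogenases and reductases outside the family, 2 were called lower and 1 higher, with a median log2 fold change of -0.76. Hsd3b2 fell by 2.64 on the log2 scale (SE 0.66; edgeR, adjusted p 0.0418), and was at -1.89 without control 2. Srd5a2 fell by 1.57. Srd5a1, which makes dihydrotestosterone, rose by 1.77 (SE 0.39; edgeR, adjusted p 0.0339). Hsd17b2, which inactivates oestradiol and testosterone, had a log2 fold change of -2.75 and was not called, and was at -1.84 without control 2. Hsd11b2, which protects the mineralocorticoid receptor from glucocorticoids, had one of -0.39 (SE 0.29). Of 18 other carbonyl-metabolising enzymes 10 were called lower and 1 higher, with a median of -1.10. Aldh8a1 and Aldh6a1, both called, had log2 fold changes of -2.22 and -1.83. Cbr3, a carbonyl reductase, was the gene called higher, with 2.89, 1.76 and 5.34 CPM in controls and 14.6, 33.7 and 23.5 CPM in knockouts (log2 fold change 2.85, SE 0.49; edgeR, adjusted p 0.0284). Without control 2 no gene of these lists was called.

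**Figure D5:**
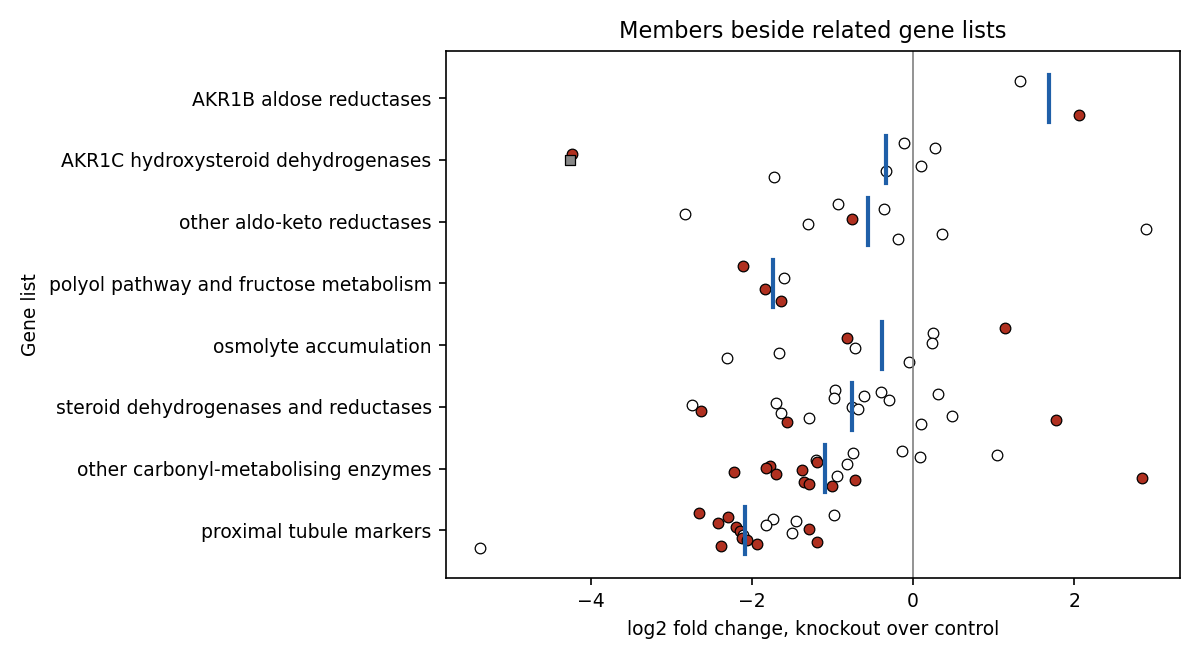
Log2 fold change of knockout over control for each tested gene of 8 lists, where each circle is a gene, filled where the adjusted p was under 0.05, the grey square is Akr1c18 (no call shown), and the blue line is the list's median. The AKR1B median is 1.69 (2 tested genes) and the AKR1C median is -0.33 (7 tested genes). Beside them stand -1.74 for the polyol list and -2.09 for proximal tubule markers.

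Markers of cell types moved between the groups as well. Of 18 proximal tubule markers 11 were called lower and 7 did not pass the test, with a median log2 fold change of -2.09. Their summed level was 22240 to 32660 CPM in controls and 3747 to 12050 CPM in knockouts, with knockout 1 the highest knockout. Lrp2 and Acsm2 were called, with log2 fold changes of -2.42 and -2.66, and Acsm2 was at -2.03 without control 2. Slc7a13 was at -5.39 and not called, and at 0.23 without control 2. In the opposite direction 7 of 9 leukocyte markers, 7 of 8 injured tubule markers and 4 of 6 myofibroblast markers were called higher, with medians of 3.01, 2.91 and 3.18. The summed leukocyte level was 184.1 to 206.8 CPM in controls and 553.8 to 1943 CPM in knockouts. Knockout 2 had the highest leukocyte sum and the highest Akr1b8, and knockout 3 the highest Akr1b7. The part of these cell type differences in the values of Akr1c18, Akr1c14, Akr1c21, Akr1b7 and Akr1b8 was not tested.

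Of 7 thick ascending limb and distal markers 6 had negative log2 fold changes, with a median of -1.08, and 1 was called lower (Pvalb, -3.25). Umod was at -1.53 (SE 0.99) and Slc12a1 at -1.46 (SE 0.81). Of 8 collecting duct markers 5 were negative, with a median of -0.23, and the lowest adjusted p was 0.113 (edgeR, Slc4a1, -1.82). Renin cells are a known site of Akr1b7 in the kidney, but Ren1 and Ren2 were both at 0 counts in all 6 libraries and could not serve as a check. The other 2 genes of that list, Rgs5 and Acta2, which also mark pericytes and smooth muscle, had log2 fold changes of 2.59 and 3.13, of which that of Acta2 was called. Of the androgen-dependent list 1 of 7 was called lower, Kap, at -4.55 and at -3.70 without control 2, and among 4 female-biased genes the lowest adjusted p was 0.126 (edgeR, Slc7a12). The median of the first of these lists was -4.38 and turned to 0.23 without control 2.

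By Pearson correlation of log2 CPM over the 6 libraries, the genes most like Akr1c18 among 11337 others were Dnase1 (0.997), Pclo (0.996), Cecr2 (0.993), Gm561 (0.992) and Gpd1 (0.992). The genes were picked for this likeness and the points share their libraries and scaling, so the values are a description. Dnase1, which encodes a secreted nuclease of the kidney, held 1282, 1028 and 1836 CPM in controls and 149.8, 49.2 and 91.0 CPM in knockouts.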

How the data were processed

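Per the labels and the methods of the study, poly-A RNA of whole kidneys was made into Illumina TruSeq libraries and sequenced as single reads. The authors used CASAVA 1.8.2, Trimmomatic, TopHat2 2.0.11 on mm9, discarded reads without a unique position, and used HTSeq to count the rest by gene. The deposited values are raw counts, not normalized. The annotation and strand setting of the counting are not given in the sources used here.

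Counts were analysed with edgeR 4.0.16 in R 4.3.3: filterByExpr defaults (minimum count 10, minimum total 15), TMM, glmQLFit and glmQLFTest (default version), no covariate, Benjamini-Hochberg over all tested genes. The SE is the log2 fold change divided by the square root of F. Log2 CPM used a prior count of 2. Groups and replicate numbers came from the sample titles. The series states that the 3 libraries of a group are biological replicates, and replicate pairs differed by 55.9 to 132 chi-square per degree of freedom. Fits were tested on simulated data first.

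Alternatives were other scalings and filters, DESeq2 1.42.0 (the tool of the study), limma-voom 3.58.1, the newer quasi-likelihood version, each library left out, and a replicate block. Sequence comparisons used BLAST 2.17.0 and Biopython 1.88. The members and gene lists were chosen with earlier results of these data known. Named are all members, the 3 largest absolute log2 fold changes of each related list the text describes gene by gene, a few fixed genes, and the 5 genes of average log2 CPM of at least 3 most correlated with Akr1c18. Genes named beyond these, such as Hspa4l, Srd5a2, Akr1e1 and Akr1b10, were chosen after their values were seen. A gene of the polyol and fructose list is not reported here.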

Additional observations from a re-analysis of the deposited data

How the results depend on the processing

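Calls over all genes changed with the libraries used. Counts of members called lower include Akr1c18, for which the family was chosen, so those counts support nothing. The number of genes called was 2612, and 4882 with DESeq2's Wald test. It was 0 without control 1, control 2 or control 3, and 5332, 73 and 2 without knockouts 1, 2 and 3. Leaving out each library in turn gave 0 to 3 members lower, 0 to 1 members higher and 0 to 84 genes of the other lists. DESeq2's Wald test added Akr1c21 to the members called lower (-1.75, adjusted p 0.00672), and called 2 members higher (Akr1b7 beside Akr1b8, at 1.31, adjusted p 0.0399) and 81 genes of the other lists, against 51. With limma-voom 1 member was called lower and 0 higher, as Akr1c14 (-3.36, adjusted p 0.118) and Akr1b8 (1.94, adjusted p 0.0511) lost their calls. The newer quasi-likelihood version, the other filters and the other scalings kept 2 lower and 1 higher. Library size alone moved the median of all genes to 0.29. The median of the members ranged from -0.50 without control 2 to 0.31 without control 3, so its sign was not stable.

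A replicate block gave 0 genes, 0 members in either direction and 0 genes of the other lists, with log2 fold changes of -4.43, -3.24 and 1.93 for Akr1c18, Akr1c14 and Akr1b8. The deviations from the group mean correlated at -0.13, 0.0116 and 0.22 between libraries with the same replicate number, and 1 of 3 controls correlated best with its own number, so a shared number was not taken as a pair.

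Only members that were not called turned in sign. Akr1c12 was at 0.13 with library size alone, 0.0799 with limma-voom, 0.0518 with the block, and -0.50 to 0.31 when a library was left out. Akr1c20 was at 0.16 with limma-voom, 0.0504 with the block and -0.84 to 0.45 when a library was left out. In such fits Akr1c13 ranged from -0.0203 to 0.49 and Akr1c19 from -0.18 to 0.26. The cause was not tested. With the union of annotated exons as length, the knockout mean of Akr1c19 moved from 30.7 to 23.9 CPM per kb, and the other levels moved by less than 1 SD.

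Akr1c20 held 6 to 62 counts a library and Akr1b3 0 to 1, which limits what can be said of both. Levels per kb without control 2 were added after seeing the data.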

Other observations

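Akr1b3, Ren1, Ren2 and 4 haemoglobin genes (Hba-a1, Hba-a2, Hbb-b1 and Hbb-b2) were listed at 0 to 1 count in every library. Kidney and blood are known for abundant transcripts of Akr1b3, Ren1 and the haemoglobin genes. Cbr1, a carbonyl reductase chosen after its values were seen, held 328.8, 48.4 and 477.5 CPM in controls and 172.5, 144.6 and 125.0 CPM in knockouts, so that control 2 was the lowest library for it, as for Akr1c12, Akr1c13, Akr1c19 and Akr1c20. Srd5a1 was highest in knockout 3, at 120.5 CPM, against 16.8 to 31.7 CPM in controls.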
